A study of Mus musculus with 8 samples.

Results

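Microglia of control mice were compared between day 1 and day 2 after transection of the sciatic nerve. This peripheral injury makes microglia of the lumbar spinal cord divide. The comparison is of 2 of 8 single-cell RNA libraries, control day 2 against control day 1. A barcode was counted as a cell if it had 1000 or more UMIs, 500 or more genes and no more than 10% of UMIs from mitochondrially encoded genes. This gave 3323 cells on day 1 and 3585 on day 2, 6908 of the 14626 kept in the series. A UMI (unique molecular identifier) stands for 1 captured RNA molecule. All mice were C57BL/6. The control mice were Cx3cr1-creER-yfp/+, so that YFP and a tamoxifen-inducible Cre were driven from the Cx3cr1 locus, and every control library shares this insertion, the 1 intact Cx3cr1 allele that goes with it, and the sort for YFP. Naive control mice and control mice of day 3 are used below as reference points. The mice called A20 cKO, used only in the closing section, were Cx3cr1-yfp-creER/+; Tnfaip3 fl/fl, which lose Tnfaip3, the gene of the deubiquitinase A20, in cells with Cre activity. The study's methods describe tamoxifen injections for recombination and place all experiments after them, without naming the control mice. Ages of the mice are not given in the labels. Each library pooled the lumbar cords of 3 animals, and each group had 1 library. No test between days was therefore possible, and no p-value is given. A range after a value is a 95% interval that covers counting error only, and the spread between animals is unknown.

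A dividing cell copies its DNA in S phase with helicases, polymerases and nucleotide-synthesising enzymes, and then, in G2 and mitosis, builds a spindle that separates the chromosomes. Genes of the first step are controlled largely by E2F factors, and those of the second by the B-MYB and FOXM1 complexes that act through promoter elements called CHR and CCAAT boxes. Immediate-early genes, such as Fos, Jun and Egr1, are transcribed within minutes of a wide range of stimuli to a cell, without new protein synthesis, and their RNAs are short-lived. Microglia, macrophages that reside in brain and spinal cord, rarely divide in the healthy cord and depend on CSF1 receptor signalling.

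The 2 libraries were of similar depth. Kept cells held 14058535 UMIs on day 1 and 15817426 on day 2, with medians of 4080 and 3911 UMIs and of 1825 and 1800 genes per cell. Mitochondrially encoded genes took 1.29% of UMIs on day 1 and 1.68% on day 2. The microglia label was borne out by its markers, all 10 of which were detected, at a summed 26246 CPM on day 1 and 23178 CPM on day 2, where CPM, counts per 1000000, is the UMIs of a gene scaled to that total in its library. Neutrophil and erythroid markers were at 0 UMIs in both libraries, which allows at most 0.213 and 0.190 CPM, and the 4 monocyte markers summed to 26 and 35 UMIs. Astrocyte markers stood at 110 and 105 CPM and oligodendrocyte markers at 67.9 and 60.1 CPM. The 3 T and NK cell markers in the table summed to 2 and 57 UMIs. Of all barcodes, 19 occurred in both libraries. Leaving out barcodes found in more than 1 library reversed none of the 35 genes for which it was run. Most of those genes were chosen for large ratios. Gzma, a cytotoxic granule protease that is no marker of microglia, was chosen after its values were seen: of its 147 UMIs on day 2, 76 were in 1 barcode, and 1.98% of day 2 barcodes had at least 1. The part of free RNA in the shares of cells below was not tested.

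Between the days 9982 genes had at least 100 UMIs in both libraries together and were compared. On day 2, 379 of them (3.80%) were at least 2-fold higher and 183 (1.83%) at least 2-fold lower, 562 in all (5.63%). The counting interval of the ratio lay away from equality for all 562, as the 2-fold threshold and the 100 UMI minimum together ensure. At least 4-fold differences were found for 160 genes (1.60%) in the higher direction and 66 (0.661%) in the lower one. At least 8-fold differences were found for 104 genes (1.04%) in the higher direction and 25 (0.25%) in the lower one. Of the 379 higher genes, 119 were on a cell cycle, histone and HMG, or stathmin and tubulin list, and 250 were on no list examined. Those lists had 12 to 51 compared members each. Of the 183 lower genes, 28 were on the immediate-early list, which had 32 compared members, and 125 on no list. How many of all 9982 compared genes were on no list was not counted. The median log2 ratio over all genes compared was 0.04.

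**Figure D1:**
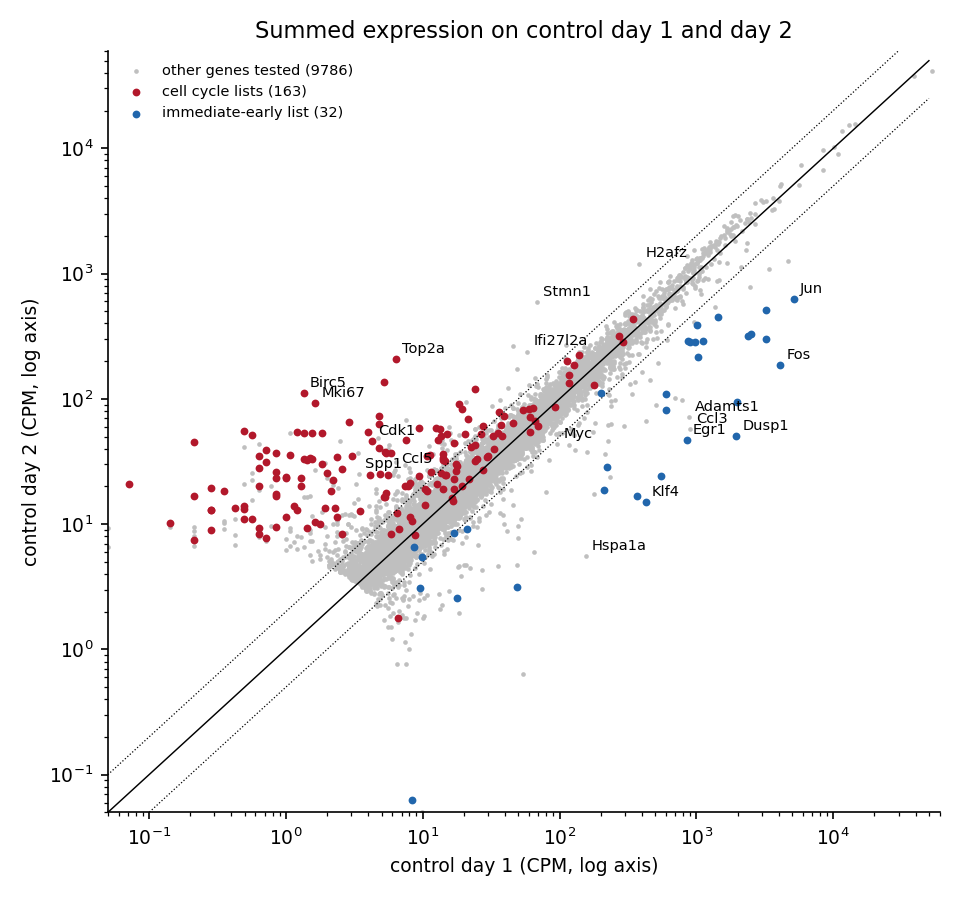
Summed expression of the 9982 genes compared, as CPM on control day 1 (horizontal, log axis) and control day 2 (vertical, log axis), 1 point a gene, with the line of equality and dotted lines at 2-fold. Red marks the cell cycle lists, here the core, spindle, replication and cyclin lists. Many of their members lie above the dotted band, such as Birc5 at 1.35 and 110.4 CPM and Top2a at 6.33 and 206 CPM. Below the band lie 28 members of the immediate-early list (blue), with Fos at 4105 and 186 CPM.

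Genes of mitosis were nearly silent on day 1 and present on day 2. All 18 core G2/M genes were compared and all 18 were at least 2-fold higher on day 2, against 3.80% of all genes, with a median log2 ratio of 5.38 against 0.04. Their summed level was 26.2 CPM on day 1 and 912 CPM on day 2, beside 33.3 CPM in naive controls and 784 CPM on day 3. Birc5, which encodes survivin, a subunit of the chromosomal passenger complex, had 1.35 CPM on day 1 and 110.4 CPM on day 2 and the largest ratio of the genes averaging at least 50 CPM, 79.6-fold, log2 6.31 (5.70 to 7.09). Top2a, the topoisomerase that untangles sister chromatids, had 6.33 CPM on day 1 and 206 CPM on day 2, 32.4-fold, log2 5.02 (4.72 to 5.35). Mki67, whose protein coats mitotic chromosomes and is the standard label of dividing cells, had 1.64 CPM on day 1 and 92.2 CPM on day 2, log2 5.79 (5.22 to 6.48). The kinase that drives entry into mitosis, Cdk1, was at 4.27 CPM on day 1 and 46.1 CPM on day 2, log2 3.42 (3.05 to 3.84). Its partners were likewise higher, Ccnb1 at 1.56 and 33.0 CPM, Ccnb2 at 0.854 and 36.7 CPM and Ccna2 at 0.640 and 34.8 CPM on the 2 days. The naive library, like day 1, had little of these transcripts, for instance 0.617 CPM of Birc5 and 6.17 CPM of Top2a. On the day 1 side the ratios rest on few molecules, for example 3 UMIs of Nusap1, a microtubule-bundling protein of the spindle, against 710 on day 2, log2 7.495 (6.16 to 10.00).

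Promoters of a few of these genes are shown because the members moved together, and because their promoters carry the letters that the background above names. Each is the RefSeq window from 250 bases before to 50 after the gene start on GRCm38, read 5′ to 3′ on the strand of the gene. Capitals mark any match, on either strand, to CCAAT, to TTTGAA or TTCGAA (the CHR letters), to TTCCCGC or TTCGCGC, or to TTGCCGC or TTGGCGC (all called E2F letters), to CACGTG, to TGACGTC, or to GAANNTTC or TTCNNGAA (heat shock letters). Adjacent and overlapping matches run together.
Cdk1 (chr10:69352863-69353162, minus strand): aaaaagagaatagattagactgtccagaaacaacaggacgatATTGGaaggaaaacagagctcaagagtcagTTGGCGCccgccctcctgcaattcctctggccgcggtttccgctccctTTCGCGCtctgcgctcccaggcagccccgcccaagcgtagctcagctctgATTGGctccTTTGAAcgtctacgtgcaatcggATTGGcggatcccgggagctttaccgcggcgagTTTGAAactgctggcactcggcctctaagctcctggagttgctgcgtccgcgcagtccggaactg
Ccnb2 (chr9:70421505-70421804, minus strand): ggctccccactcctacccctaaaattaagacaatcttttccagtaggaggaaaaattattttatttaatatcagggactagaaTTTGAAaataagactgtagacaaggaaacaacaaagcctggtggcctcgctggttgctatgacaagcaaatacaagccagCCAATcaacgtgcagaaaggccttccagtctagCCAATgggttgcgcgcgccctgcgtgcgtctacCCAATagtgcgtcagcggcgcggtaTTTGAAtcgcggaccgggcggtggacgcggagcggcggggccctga
Top2a (chr11:99024140-99024439, minus strand): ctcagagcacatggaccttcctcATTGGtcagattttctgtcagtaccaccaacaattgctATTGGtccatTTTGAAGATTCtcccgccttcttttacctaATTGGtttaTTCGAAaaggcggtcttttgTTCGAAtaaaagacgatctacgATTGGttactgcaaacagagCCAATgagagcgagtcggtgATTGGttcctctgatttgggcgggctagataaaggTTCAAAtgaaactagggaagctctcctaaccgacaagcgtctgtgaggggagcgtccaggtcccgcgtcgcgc
In the Cdk1 window 3 matches to CCAAT, 2 to the CHR letters and 2 to the E2F letters were found. The Ccnb2 window held 3 and 2 matches to CCAAT and the CHR letters, and the Top2a window 6 and 4. Over the list, 13 of the 15 core G2/M genes with a window (86.7%) had CCAAT and 11 (73.3%) the CHR letters. Among all 7999 compared genes with a window, 39.6% had CCAAT and 14.1% the CHR letters. These are letter matches, not measured binding sites.

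The wider spindle, kinetochore and cytokinesis list showed the same direction. Of its 53 genes 51 were compared, 44 were at least 2-fold higher, against 3.80% of all genes, and none lower, with a median log2 ratio of 3.84. Condensins, which compact chromosomes, were among them, Smc2 with 19.3 CPM on day 1 and 82.8 CPM on day 2 (log2 2.101, 1.91 to 2.30) and Smc4 with 9.46 and 58.7 CPM. Prc1, which bundles microtubules of the central spindle, had 0.569 and 51.2 CPM and Cenpa, the histone that marks centromeres, 1.35 and 53.2 CPM. Hjurp, the chaperone that loads Cenpa, is on no list and had 48.7 CPM on day 1 and 174 CPM on day 2, log2 1.83 (1.71 to 1.96). Cks1b, a small subunit of cyclin-dependent kinases, had 18.3 CPM on day 1 and 90.2 CPM on day 2, log2 2.30 (2.11 to 2.50). The 7 members inside 2-fold included Ran, a nuclear transport GTPase, at 346 and 437 CPM, and Pttg1, securin, at 60.5 and 53.9 CPM. In 46 spindle list genes with a promoter window, 76.1% had the CHR letters and 71.7% CCAAT.

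**Figure D2:**
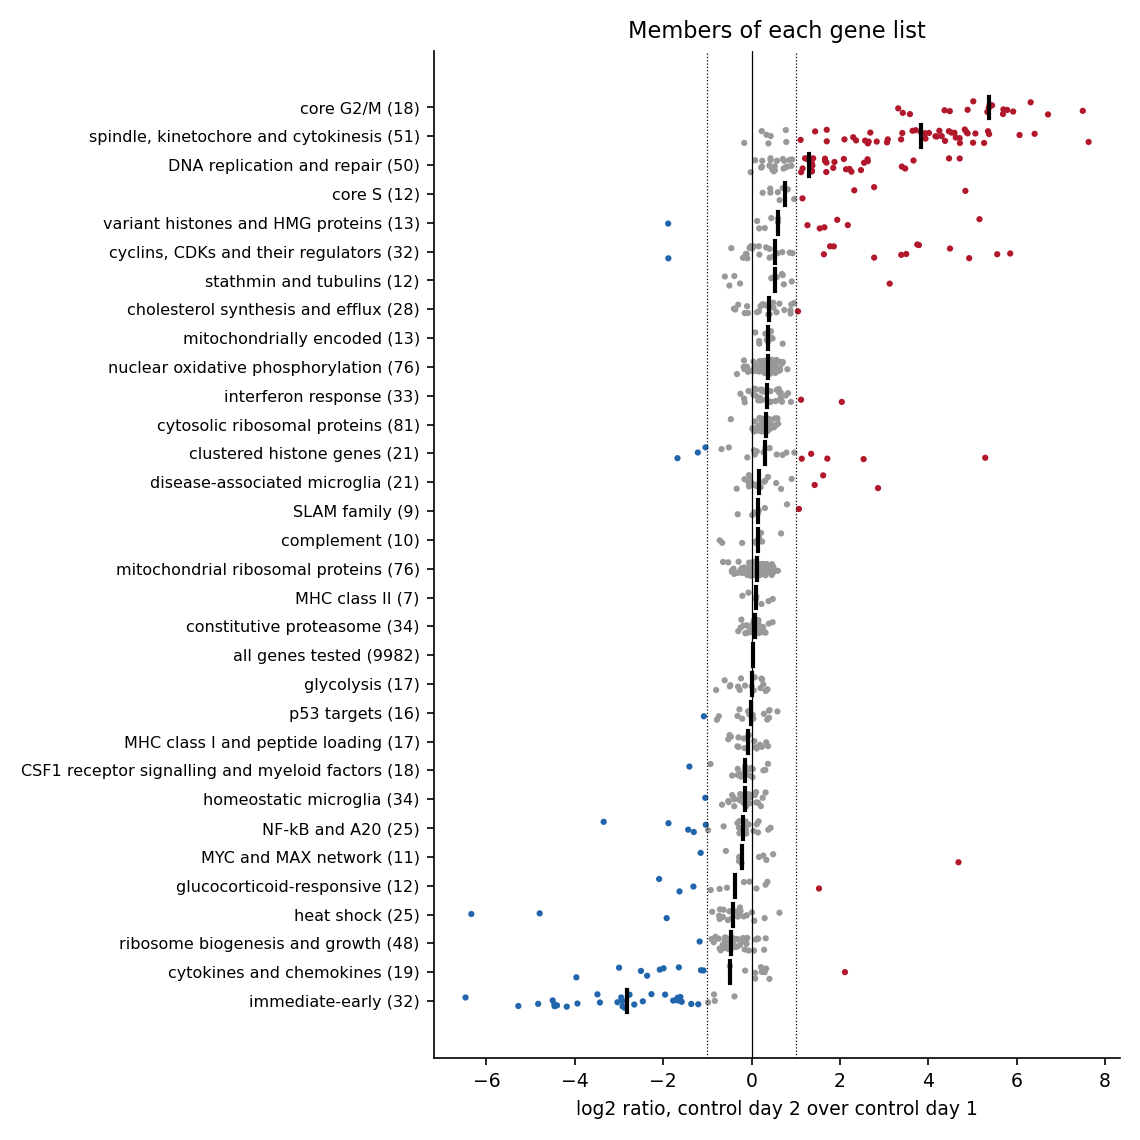
The log2 ratio of control day 2 over control day 1 (horizontal) for each compared member of each gene list (rows, with the number compared), red for at least 2-fold higher, blue for at least 2-fold lower and grey for neither; black bars are list medians, and the row of all genes shows its median only. The core G2/M and immediate-early lists stand at the ends with medians of 5.38 and -2.82. The lists of metabolism, ribosomes and microglial identity lie mostly between the dotted 2-fold lines. The exceptions are 3 members of the disease-associated microglia list and single members of others.

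DNA replication genes were also higher on day 2, but most were already transcribed on day 1, and their ratios were smaller. Of 50 replication and repair genes compared, 29 were at least 2-fold higher, against 3.80% of all genes, and none lower, with a median log2 ratio of 1.31. Of the 12 core S genes 4 passed 2-fold, with a median of 0.76. Those 4 were Rrm2 at 1.85 and 53.9 CPM and Tyms at 24.1 and 121 CPM, enzymes that supply deoxynucleotides, the helicase loader Cdc6 at 1.92 and 13.3 CPM and Gins2, of the replicative helicase, at 14.4 and 32.1 CPM. Tyms, which makes thymidylate, had a log2 ratio of 2.32 (2.16 to 2.50) and 20.4 CPM in naive controls and 42.7 CPM on day 3. The MCM helicase subunits differed less than 2-fold, Mcm5 with 24.2 and 42.7 CPM (log2 0.82, 0.63 to 1.01) and Mcm3 with 60.6 and 72.1 CPM (log2 0.25, 0.12 to 0.38). Pcna, the sliding clamp of DNA polymerases, had 53.7 CPM on day 1 and 81.1 CPM on day 2, beside 23.4 CPM in naive controls and 56.4 CPM on day 3. For both Mcm5 and Pcna the naive level lay below that of day 1, and day 2 was the highest of the 4 control libraries. Another member past 2-fold was Tk1, thymidine kinase, at 2.92 and 65.3 CPM.

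The promoter of Mcm5 is given to set a gene of this group beside the mitotic ones, with the same letters in capitals.
Mcm5 (chr8:75109259-75109558, plus strand): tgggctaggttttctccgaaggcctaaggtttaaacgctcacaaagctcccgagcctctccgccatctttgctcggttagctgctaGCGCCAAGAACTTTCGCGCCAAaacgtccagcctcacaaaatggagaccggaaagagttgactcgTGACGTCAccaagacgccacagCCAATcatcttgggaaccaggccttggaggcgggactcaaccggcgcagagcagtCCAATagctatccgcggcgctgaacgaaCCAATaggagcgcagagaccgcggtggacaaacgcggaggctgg
It held 3 matches to the E2F letters, 3 to CCAAT, 2 overlapping ones to TGACGTC, 1 to the heat shock letters, and none to the CHR letters. Of 10 core S genes with a window, 7 (70.0%) had the E2F letters and 2 the CHR letters. Among all compared genes with a window 18.7% had the E2F letters. For the replication and repair list only 39 of 51 genes had a window (76.5%), against 80.1% of all compared genes. Of those 39, 25 (64.1%) had the E2F letters and 6 (15.4%) the CHR letters.

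Regulators of the cycle differed among themselves. Of 32 cyclins, cyclin-dependent kinases and regulators compared, 12 were at least 2-fold higher, against 3.80% of all genes, 1 was lower and 19 were inside 2-fold. E2f7 and E2f8, the repressors of the E2F family that accumulate in late S phase, had 0.142 and 10.2 CPM and 0.356 and 18.4 CPM, and the activator E2f1 had 12.9 and 46.8 CPM. Foxm1, a driver of mitotic genes, had 0.213 and 7.52 CPM, and Mybl2, which encodes B-MYB, 0.711 and 7.78 CPM. The G1/S cyclins Ccne1 and Ccne2 had 3.06 and 35.0 CPM and 3.98 and 54.0 CPM. By contrast the G1 genes Cdk4, Cdk6 and Ccnd1 had log2 ratios of 0.18, 0.01 and -0.46, and the inhibitor Cdkn1a (p21) one of -0.05. Ccnd2, a D-type cyclin, was the lower one, at 6.62 and 1.77 CPM, log2 -1.88 (-2.57 to -1.28). Inhibitors of the INK4 family were higher, Cdkn2c with 5.41 and 37.2 CPM and Cdkn2d with 15.2 and 52.0 CPM.

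Histone genes did not move as 1 group. Among variant histones and HMG proteins, 6 of 13 were higher and 1 lower, against 3.80% and 1.83% of all genes. H2afz, the H2A.Z variant found at promoters, had 382 CPM on day 1 and 1197 CPM on day 2, log2 1.65 (1.603 to 1.69). H2afx, whose histone variant marks DNA breaks, had 20.8 and 94.4 CPM, log2 2.18 (1.998 to 2.36). H2afv, another H2A.Z gene, had 41.7 and 121 CPM, log2 1.54 (1.41 to 1.68). Hmgb2, a DNA-bending protein abundant in dividing cells, had 112 and 268 CPM, log2 1.26 (1.18 to 1.35). The lower one was H3f3b, 1 of the genes for the replication-independent histone H3.3, at 4675 CPM on day 1 and 1263 CPM on day 2, log2 -1.89 (-1.91 to -1.87), while H3f3a, which encodes the same protein, had a log2 ratio of 0.30. Of 69 clustered histone genes, whose RNAs mostly lack the poly(A) tail that this chemistry captures, 48 fell under the minimum of 100 UMIs. Of the 21 compared, 5 were higher and 3 lower, beside the same shares of all genes, 3.80% and 1.83%. Hist1h2ap, an H2A gene with near-identical copies between which reads may be split, had 45.5 CPM on day 1 and 264 CPM on day 2, log2 2.54 (2.42 to 2.66), and the linker histone Hist1h1c had 175 and 54.6 CPM, log2 -1.68 (-1.79 to -1.57).

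Stmn1, which encodes stathmin, a protein that takes apart microtubules, had the largest gain in CPM after H2afz among the genes of the cell cycle, histone, stathmin and tubulin lists. It had 67.9 CPM on day 1 and 592 CPM on day 2, 8.72-fold, log2 3.12 (3.03 to 3.22), beside 41.3 CPM in naive controls and 354 CPM on day 3. It was the only 1 of 12 stathmin and tubulin genes past 2-fold, where 3.80% of all genes were at least 2-fold higher. The tubulins Tuba1b and Tubb5 had log2 ratios of 0.73 and 0.70, and Tuba1a one of -0.61. Myc, the growth factor-induced transcription factor, was lower on day 2, 96.5 CPM on day 1 and 43.4 CPM on day 2, log2 -1.15 (-1.29 to -1.02), beside 31.5 CPM in naive controls and 46.4 CPM on day 3. Mxd3, a MAX partner that opposes MYC, was the other of 11 MYC and MAX network genes past 2-fold, at 0.569 and 15.5 CPM, log2 4.68 (3.77 to 5.99). Over all genes 5.63% were past 2-fold. Of 48 genes of ribosome biogenesis and growth 42 had ratios below equality, with a median log2 ratio of -0.47. The ribosome assembly factor Rrp12 alone passed 2-fold, at 7.90 and 3.48 CPM, against 1.83% of all genes at least 2-fold lower. Ncl, nucleolin, had a log2 ratio of -0.45, and Odc1, the first enzyme of polyamine synthesis, one of -0.61.

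**Figure D3:**
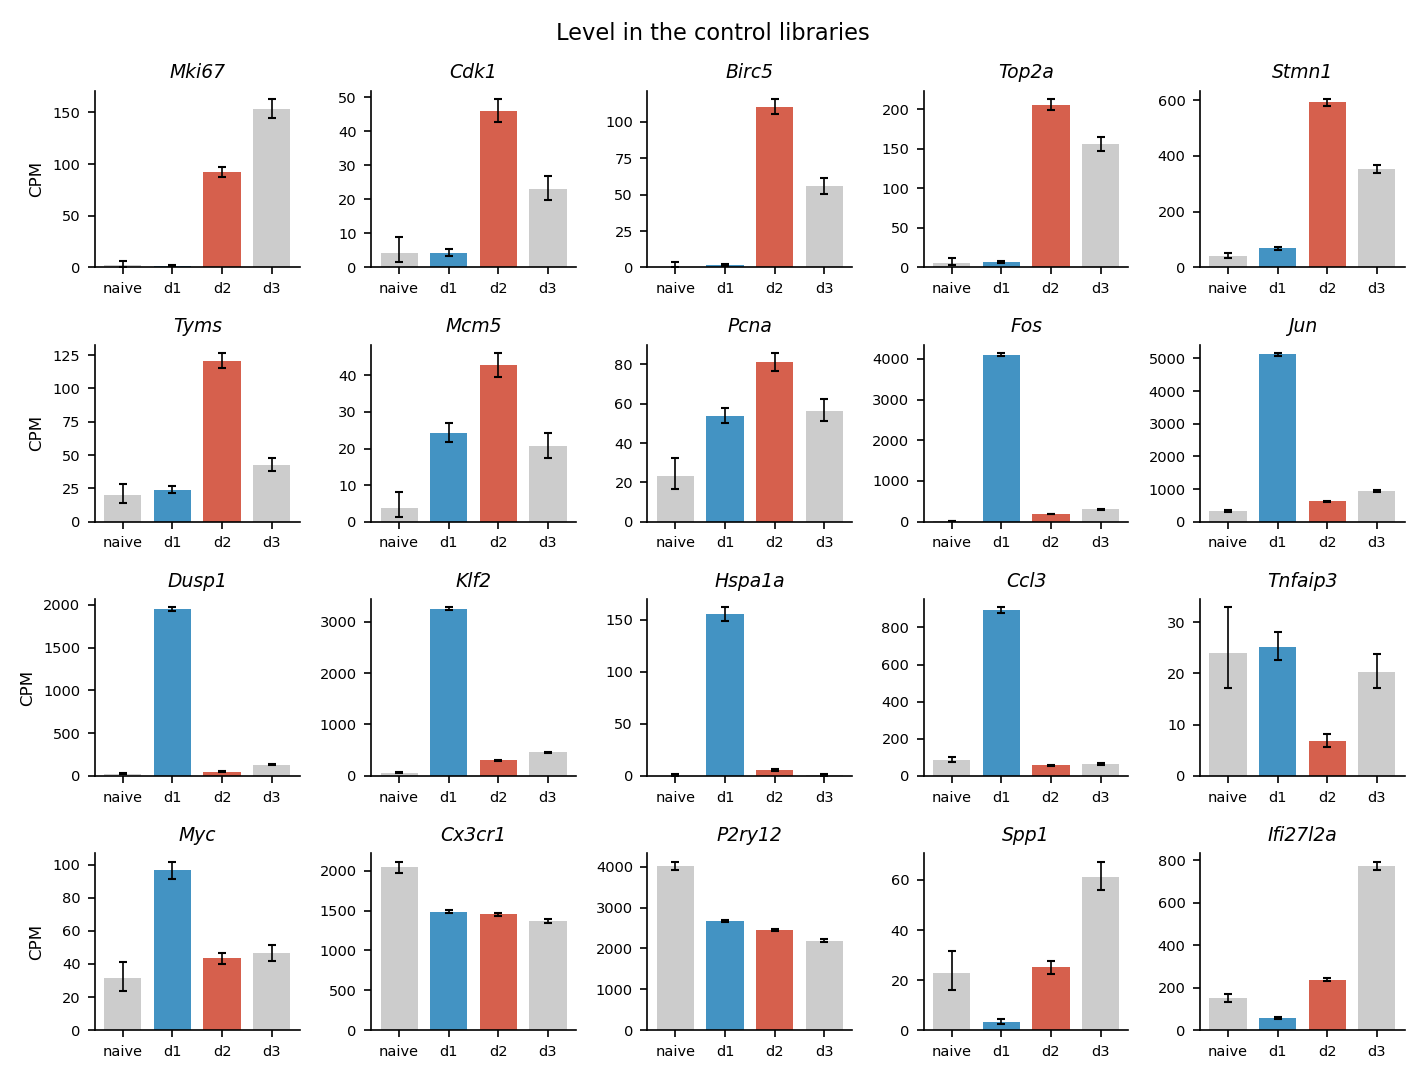
Level of 20 genes as CPM (vertical axes, each from 0) in the control libraries of naive mice and of mice on day 1, 2 and 3 (d1 to d3), with day 1 in blue and day 2 in red; bars are 1 library each and error bars are exact 95% Poisson intervals. Top2a stands at 6.33 and 206 CPM and Dusp1 at 1948 and 50.1 CPM on days 1 and 2, whereas Cx3cr1 is at 1487 and 1455 CPM.

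To see how the cycle genes were spread over cells, each cell was thinned to 2000 UMIs, which kept 3225 cells on day 1 and 3480 on day 2. Cells with UMIs of at least 3 core G2/M genes numbered 2 on day 1 (0.0620%, 0.00751% to 0.224%) and 463 on day 2 (13.3%, 12.2% to 14.5%), a difference of 13.2 percentage points (12.1 to 14.4). Without thinning the shares were 0.271% and 30.0%. Cells with at least 3 core S genes and fewer than 3 core G2/M genes were 2.26% on day 1 and 5.78% on day 2. These shares were 3.51 points apart (2.59 to 4.46). Without thinning they were 11.6% and 11.7%, and the difference was not detectable (0.0973 points, -1.42 to 1.61). This class leaves out cells with at least 3 core G2/M genes, 9 on day 1 and 1076 on day 2 without thinning. Whatever their G2/M genes, 1.67% of thinned cells on day 1 and 6.12% on day 2 had exactly 3 core S genes. Shares with 4 core S genes were 0.496% and 2.64%, and with 5 or more 0.0930% and 0.977%. At least 1 UMI of a core G2/M gene was found in 3.07% of cells on day 1 and 61.4% on day 2. On the other side, cells with no UMI of either core list were 59.4% of day 1 and 19.1% of day 2.

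Single genes followed the same shares. In cells thinned to 2000 UMIs, Top2a was seen in 0.620% of cells on day 1 and 23.1% on day 2 (without thinning 1.66% and 37.0%). Mki67 was seen in 0.124% of cells on day 1 and 12.3% on day 2 (without thinning 0.421% and 23.9%). Stmn1 was seen in 11.1% of cells on day 1 and 59.4% on day 2 (without thinning 21.7% and 78.5%). On day 2 the level of Stmn1 was 1082 CPM in the 463 cells with at least 3 core G2/M genes, 716 CPM in the 201 S cells and 392 CPM in the 663 cells without a core UMI. The last value is above the 53.2 CPM of day 1 cells without a core UMI. H2afz was graded alike, at 1875, 1308 and 805 CPM in the same 3 sets, and Hmgb2 at 623, 388 and 118 CPM. Hist1h2ap was concentrated in the G2/M cells, 931 CPM against 63.3 CPM without a core UMI. The microglial receptor P2ry12 was lower in the G2/M cells, 1954 against 2900.4 CPM. The median depth of these sets before thinning was 5841 UMIs for the G2/M cells, 4880 for the S cells and 3688 for cells without a core UMI, and its part in these values was not tested.

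Immediate-early genes made up the other side of the comparison. Of 40 on the list 32 were compared, 28 were at least 2-fold lower on day 2, against 1.83% of all genes, and none was higher, with a median log2 ratio of -2.82. The list summed to 36024 CPM on day 1 and 5103 CPM on day 2. In naive controls it summed to 4802 CPM and on day 3 to 7389.6 CPM, so the day 1 library was the one that stood apart among the 4 controls. Whether this belongs to the animals, the day or the preparation cannot be told apart with 1 library per time point. The AP-1 subunits were among the most abundant, Fos with 4105 CPM on day 1 and 186 CPM on day 2 (22.1-fold lower, log2 -4.46, -4.52 to -4.41) and Jun with 5124 CPM on day 1 and 625 CPM on day 2 (8.20-fold lower, log2 -3.04, -3.07 to -3.01). Fosb, a further subunit, had 554 CPM on day 1 and 24.4 CPM on day 2, log2 -4.50 (-4.65 to -4.36), and the related factor Atf3 370.2 CPM on day 1 and 16.8 CPM on day 2, log2 -4.46 (-4.64 to -4.28). Junb and Jund had 3206 and 509 CPM and 2384 and 315 CPM.

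The same direction held for zinc-finger factors and for feedback inhibitors. Klf2 and Klf4, Krueppel-like factors, had 3245 and 300.4 CPM (log2 -3.43, -3.48 to -3.39) and 425 and 14.9 CPM (log2 -4.83, -5.03 to -4.65) on the 2 days. Egr1, an early growth response factor, had 848 CPM on day 1 and 46.7 CPM on day 2, log2 -4.18 (-4.29 to -4.08). Dusp1, a phosphatase that switches off MAP kinases, had the largest ratio of the lower genes averaging at least 50 CPM, 1948 CPM on day 1 and 50.1 CPM on day 2, 38.8-fold lower, log2 -5.28 (-5.38 to -5.18), with 24.1 CPM in naive controls and 132 CPM on day 3. Ier2 and Ier3, small immediate-early proteins, had 1992 and 94.1 CPM (log2 -4.40, -4.48 to -4.33) and 209.7 and 18.6 CPM (log2 -3.49, -3.67 to -3.32). Zfp36, which promotes decay of cytokine mRNAs, had 601 and 82.1 CPM, and the antiproliferative gene Btg2 2505 and 330.3 CPM. Adamts1, a secreted protease on no list, had 883 CPM on day 1 and 71.8 CPM on day 2, log2 -3.62 (-3.71 to -3.53). The 4 compared members inside 2-fold were Fosl2, Srf, Gadd45g and Mafk, with log2 ratios from -0.99 to -0.39.

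The promoter of Fos, given for comparison with those above, contained none of the letters searched.
Fos (chr12:85473640-85473939, plus strand): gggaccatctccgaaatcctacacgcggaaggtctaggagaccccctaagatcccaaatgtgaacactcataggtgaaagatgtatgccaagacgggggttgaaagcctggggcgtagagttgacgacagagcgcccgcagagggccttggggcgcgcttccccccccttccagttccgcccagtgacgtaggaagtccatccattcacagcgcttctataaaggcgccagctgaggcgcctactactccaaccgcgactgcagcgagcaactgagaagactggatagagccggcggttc
This says only that those exact letters are not in the window. Of 35 immediate-early genes with a window, 14.3% had the CHR letters and 42.9% CCAAT, near the 14.1% and 39.6% of all compared genes.

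The difference involved nearly every cell. In cells thinned to 2000 UMIs, the immediate-early list took a median of 70 UMIs on day 1 (5th to 95th percentile 28 to 123) and 10 on day 2 (4 to 20), against 9 in naive controls. Of day 1 cells, 99.6% lay above the 95th percentile of day 2, and the lowest day 1 cell had 16 UMIs and the highest day 2 cell 36. On day 1 the distribution had 2 peaks, with 398 cells at 32 to 39 UMIs, 196 at 48 to 55 and 280 at 88 to 95. Day 2 had a single peak, with 1990 of 3480 cells at 8 to 15 UMIs. Fos was seen in 98.5% of cells on day 1 and 23.9% on day 2 (without thinning 99.7% and 40.2%). Dusp1 was seen in 91.5% of cells on day 1 and 8.82% on day 2 (without thinning 97.5% and 17.2%). On day 2 Fos stood at 172 CPM in the G2/M cells and 168 CPM in cells without a core UMI, so its level did not follow the cycle classes.

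**Figure D4:**
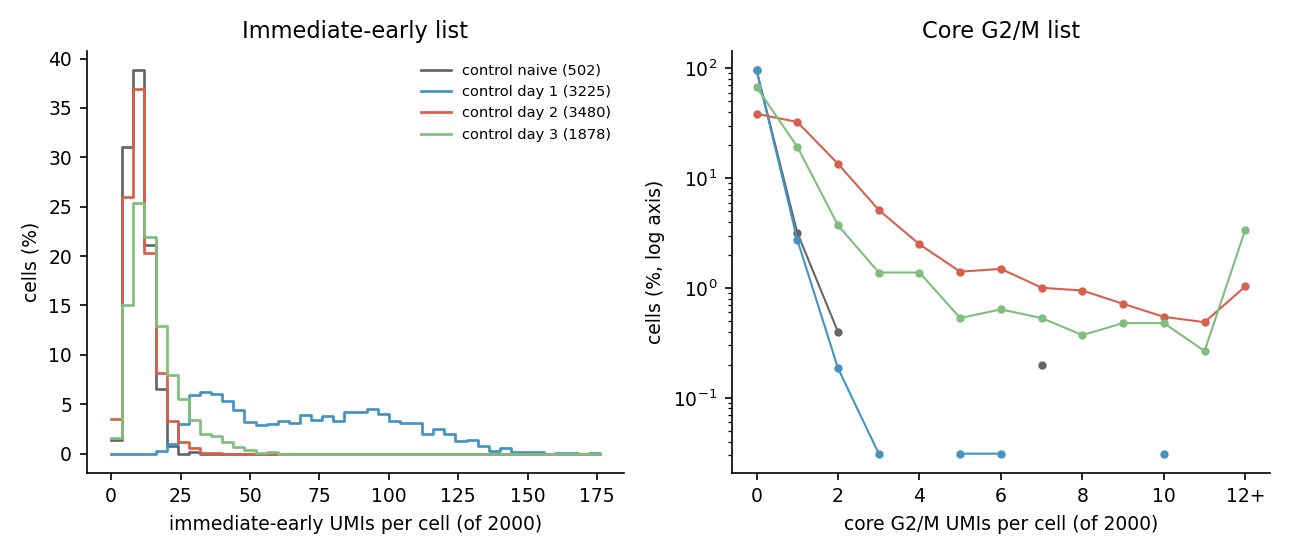
Distribution over cells, each thinned to 2000 UMIs, of the UMIs of the immediate-early list (left, bins of 4 UMIs) and of the core G2/M list (right, log axis, last point 12 or more) in the 4 control libraries, as a percentage of the cells of each library (numbers in the key). Day 1 is spread out to the right on the left panel, with a median of 70 against 10 on day 2, and day 2 is spread out on the right panel, where 61.4% of its cells have at least 1 UMI against 3.07% on day 1.

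Heat shock genes were lower for a few inducible members. Of 25 compared, 3 were at least 2-fold lower, against 1.83% of all genes, and none higher, with a median log2 ratio of -0.43. Hspa1a, an inducible HSP70 chaperone whose near-identical copy Hspa1b may share its reads, had 155 CPM on day 1 and 5.56 CPM on day 2, log2 -4.80 (-5.13 to -4.50). It was at 0 CPM in naive controls, where 3 counts would be 1.85 CPM, and at 0.549 CPM on day 3. The small heat shock protein Hspb1 had 53.8 CPM on day 1 and 0.632 CPM on day 2, log2 -6.34 (-7.48 to -5.53), from 10 UMIs on day 2, and the HSP40 co-chaperone Dnajb1 238 and 62.8 CPM, log2 -1.92 (-2.03 to -1.82). Constitutive chaperones were nearer to equality, Hspa8 with a log2 ratio of -0.89 and Hsp90ab1 with one of -0.64. Hspa1a was seen in 17.2% of cells on day 1 and 0.977% on day 2 (without thinning 28.2% and 1.59%), a minority of day 1 cells. Its day 1 level was far below the 4105 CPM of Fos, and the part of level in the share of cells was not tested. The Hspa1a promoter held 1 match to the heat shock letters and 1 to CCAAT.
Hspa1a (chr17:34972107-34972406, minus strand): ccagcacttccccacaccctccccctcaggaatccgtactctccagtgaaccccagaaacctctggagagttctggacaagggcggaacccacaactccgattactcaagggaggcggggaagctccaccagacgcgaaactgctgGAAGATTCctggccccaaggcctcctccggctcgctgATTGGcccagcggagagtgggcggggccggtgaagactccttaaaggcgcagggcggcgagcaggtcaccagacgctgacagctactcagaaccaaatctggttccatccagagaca

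Several chemokines and cytokines were lower on day 2. Of 19 compared, 9 were at least 2-fold lower, against 1.83% of all genes, and 1 higher, 8 had ratios above equality and 11 below, with a median log2 ratio of -0.49. Ccl3 and Ccl4, the inflammatory chemokines MIP-1α and MIP-1β, had 892 CPM on day 1 and 57.0 CPM on day 2 (log2 -3.97, -4.07 to -3.87) and 779 and 97.4 CPM (log2 -2.999, -3.08 to -2.92). Ccl2 and Ccl12, ligands of CCR2, had 502 and 88.6 CPM and 3406 and 1088 CPM, log2 -2.50 and -1.65. Tnf had 158 and 37.4 CPM, log2 -2.08 (-2.21 to -1.95), and Il1b 18.2 and 4.55 CPM, log2 -1.99 (-2.40 to -1.62). Ccl6 and Ccl9, chemokines that microglia express without stimulation, had log2 ratios of 0.33 and 0.30. The higher one was Ccl5, at 6.26 CPM on day 1 and 27.2 CPM on day 2, log2 2.11 (1.78 to 2.47), of whose 430 UMIs on day 2 125 were in 1 barcode.

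In the NF-kB pathway several genes were past 2-fold, all of them lower on day 2. Of 25 compared genes 5 were at least 2-fold lower, against 1.83% of all genes, and none higher, with a median log2 ratio of -0.19. These were Nfkbiz, an atypical nuclear IkB protein, at 177 and 17.4 CPM (log2 -3.35, -3.54 to -3.17), Nfkbia, which encodes IkBα, at 523 and 193 CPM (log2 -1.43, -1.496 to -1.37), Nfkbid at 29.2 and 11.8 CPM, the subunit gene Relb at 53.2 and 25.9 CPM (log2 -1.04), and Tnfaip3. Tnfaip3 had 25.3 CPM on day 1 and 6.83 CPM on day 2, log2 -1.88 (-2.21 to -1.57), beside 24.1 CPM in naive controls and 20.3 CPM on day 3, so day 2 was the lowest of the 4 controls. The subunits Rela, Nfkb1 and Rel had log2 ratios of -0.28, -0.13 and -0.14, and the kinases Chuk and Ikbkb of -0.07 and 0.38. Among 12 glucocorticoid-responsive genes, 3 were lower and 1 higher, against 1.83% and 3.80% of all genes. The lower ones were the clock gene Per1 at 20.1 and 4.68 CPM, Tsc22d3 (GILZ) at 341 and 110.0 CPM and the G protein regulator Rgs2 at 1356 and 545 CPM. The higher one was the mTOR inhibitor gene Ddit4 at 8.04 and 23.2 CPM. Fkbp5, another standard target, had a log2 ratio of 0.36.

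Genes of microglial identity differed little between the days. Of 34 homeostatic genes 1 was past 2-fold, on the lower side, against 1.83% of all genes, and the list median was -0.16. The fractalkine receptor gene Cx3cr1 had 1487 CPM on day 1 and 1455 CPM on day 2, the purinergic receptor P2ry12 2680.1 and 2463 CPM and Tmem119 3665 and 3253 CPM. Csf1r, the receptor on which microglia depend, had 2356 and 1737 CPM, log2 -0.44 (-0.46 to -0.42). In the CSF1 receptor and myeloid factor list of 18 genes, 1 was at least 2-fold lower, against 1.83% of all genes. It was the lineage factor Cebpa at 358 and 135 CPM, log2 -1.41 (-1.48 to -1.33), while Spi1 (PU.1) and Irf8 had log2 ratios of -0.15 and -0.31. Of 21 disease-associated microglia genes 3 were higher, against 3.80% of all genes, all at low level, namely osteopontin Spp1 at 3.41 and 25.04 CPM, cystatin F Cst7 at 11.8 and 36.4 CPM and galectin-3 Lgals3 at 5.41 and 14.6 CPM. Of the 396 Spp1 UMIs on day 2, 108 were in 1 barcode. Spp1 was at 22.8 CPM in naive controls, so day 1 was the lowest of the 4 controls. Apoe, Trem2 and Cd9 of the same list had log2 ratios of -0.06, 0.09 and -0.06.

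Interferon genes leaned to day 2 without passing 2-fold in most cases. Of 33 compared, 2 were at least 2-fold higher, against 3.80% of all genes, and none lower. Of the 33, 29 lay above equality, as did 5482 of all 9982 genes, and the median log2 ratio was 0.34. Ifi27l2a, an interferon-induced gene of mitochondrial membranes, had 57.8 CPM on day 1 and 238 CPM on day 2, log2 2.04 (1.93 to 2.15), beside 151 CPM in naive controls and 773 CPM on day 3. It was seen in 10.7% of cells on day 1 and 33.4% on day 2 (without thinning 19.3% and 54.6%). Ifitm3, which blocks viral entry, had 59.9 and 130.1 CPM, log2 1.12 (1.003 to 1.24), and Isg15, a ubiquitin-like protein, had a log2 ratio of 0.24. None of 17 MHC class I and peptide loading genes, 7 MHC class II genes or 10 complement genes passed 2-fold, with median log2 ratios of -0.07, 0.11 and 0.13. B2m, the light chain of class I molecules, had 3220.5 and 3779 CPM, and C1qa, a chain of complement C1q, 14476 and 15496 CPM. Among 9 SLAM family genes 1 was at least 2-fold higher, against 3.80% of all genes. It was the receptor gene Cd244 (2B4), at 51.8 CPM on day 1 and 109 CPM on day 2, log2 1.07 (0.95 to 1.20).

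Genes of the ribosome and of respiration shifted together by less than 2-fold. All but 1 of 81 cytosolic ribosomal protein genes compared had ratios above equality, with a median log2 ratio of 0.33, and none passed 2-fold. Together they took 9.04% of UMIs on day 1 and 11.4% on day 2. Of 76 nuclear genes of oxidative phosphorylation 68 had ratios above equality, with a median of 0.37, and all 13 mitochondrially encoded genes did, with the same median. Atp5e and Ndufa4, subunits of ATP synthase and of the respiratory chain, had log2 ratios of 0.69 and 0.56. Mitochondrial ribosomal proteins (median 0.12), glycolysis (0.00) and the proteasome (0.07) lay nearer to the median of all genes, 0.04, and had no member past 2-fold. Pkm, the last enzyme of glycolysis, had 308 and 396 CPM. Of 28 cholesterol genes 1 was at least 2-fold higher, against 3.80% of all genes, and the list median was 0.40. The member past 2-fold was the isoprenoid enzyme gene Idi1, at 8.75 and 18.1 CPM. Among 16 p53 target genes the kinase gene Plk3 alone was past 2-fold, at 122 and 57.6 CPM, against 1.83% of all genes lower.

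Part of the difference is seen in cells without core cycle transcripts. Cells with no UMI of a core S or core G2/M gene after thinning numbered 1917 on day 1 and 663 on day 2, and 5980 genes had enough UMIs in them to be compared. In these cells 24 genes were at least 2-fold higher on day 2 (0.401%) and 119 lower (1.99%). All thinned cells gave 203 and 132 of 8607 genes, with core genes left out in both. Cells without a core UMI held 3834000 UMIs on day 1 and 1326000 on day 2. Genes met the 100 UMI minimum here mostly through day 1, so those higher on day 2 met it less easily. The balance of higher and lower counts here is therefore shaped by this minimum. Some genes past 2-fold in all thinned cells could be compared here. Of these, 20 of 31 higher ones and 92 of 101 lower ones were past 2-fold here too. The cells without a core UMI are themselves part of all thinned cells, 1917 of 3225 and 663 of 3480. This agreement was therefore partly fixed in advance. Of the list members compared in these cells Stmn1 had the highest log2 ratio, 2.88 (2.65 to 3.12), at 53.2 and 392 CPM, while most mitotic genes had too few UMIs here to be compared, and H2afz had 358 and 805 CPM, log2 1.17 (1.05 to 1.29). Ifi27l2a and Cd244 had log2 ratios of 1.70 (1.45 to 1.96) and 1.17 (0.82 to 1.51). Fos had 4012 and 168 CPM, log2 -4.57 (-4.77 to -4.39), and Dusp1 1899.6 and 49.8 CPM, log2 -5.24 (-5.63 to -4.91). Of 25 immediate-early genes compared in these cells 24 were at least 2-fold lower, with a median of -2.74. A cell without a core UMI at this depth may still be in cycle, since the core genes are of low abundance.

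**Figure D5:**
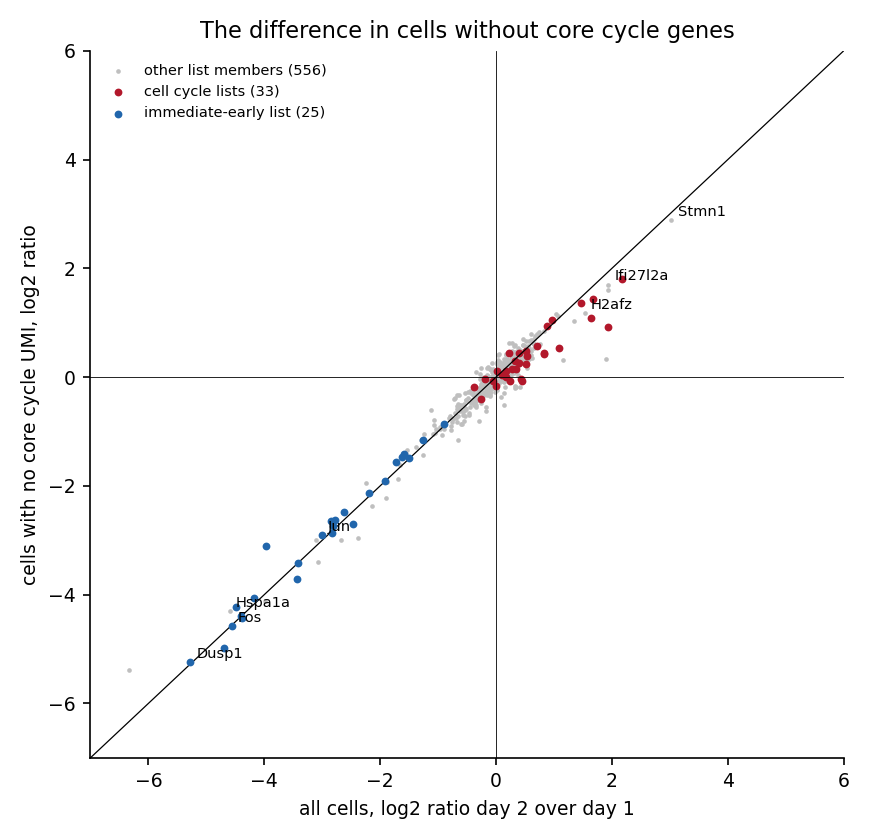
The log2 ratio of control day 2 over control day 1 for members of the gene lists, in all cells thinned to 2000 UMIs (horizontal) and in cells with no UMI of a core S or G2/M gene (vertical), 1 point a gene, with the line of equality. Immediate-early genes (blue) lie near the line, with Fos at -4.56 and -4.57. The genes of the spindle, replication and cyclin lists that remain abundant enough (red) lie near or below it.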

How the data were processed

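RNA of YFP-sorted lumbar microglia was measured with 10x Genomics 3′ libraries. The kit is v3.1 in the labels and v3 in the methods. The authors deposited unnormalized counts of UMIs, made, per the labels' processing notes, with Cell Ranger 2.1.1 and mm10, as sparse matrices of barcodes already called as cells. The integration of libraries described in the study was not applied. All 27998 gene identifiers were used as deposited, and 27645 matched GENCODE M21 on GRCm38.

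Cells were filtered as stated above, UMIs were summed per library and scaled to CPM (14058535 and 15817426 UMIs), and log2 ratios were taken after adding 0.5 UMIs. A gene was compared if both sums together held 100 UMIs or more, and called means at least 2-fold. Replicates were absent, so intervals are exact Poisson (levels), exact conditional (ratios), Clopper-Pearson (shares) and Newcombe (differences of shares) at 95%, for counting error only. A level of 0 is limited by 3 counts. Cells thinned without replacement to 2000 UMIs (98 and 105 shallower cells left out) gave shares and loads per cell. The sort excluded doublets before loading, doublets formed in droplets were not removed, and no caller was run. As alternatives, 1 and 23 cells above 3 times the median UMIs were left out, and scaling (edgeR 4.0.16 TMM and DESeq2 1.42.0 size factors in R), thresholds and filters were varied.

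The comparison and the 31 gene lists were chosen with earlier results of these data known. Genes are named if among the 15 highest or 15 lowest ratios at a mean of at least 50 CPM, with Xist and genes that are Y-linked, mitochondrially encoded, ribosomal or predicted passed over, or if on a list, or always for Myc, Tnfaip3, Mki67, Cdk1, Fos, Hspa1a, Stmn1 and Cd244. Promoter windows were matched to RefSeq genes of GRCm38.p6 by symbol, Ensembl identifier or synonym, 1 window per gene. Some genes are not reported here. Scripts used Python 3.11.15.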

Additional observations from a re-analysis of the deposited data

Results flagged for a closer look

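Of 35 genes screened, 3 moved the opposite way in the 2 genotypes with both counting intervals away from equality. Most of the 35 were chosen for large ratios between these control libraries. The other compared genes were not screened, so no share over all genes can be given. The 3 genes were lower on day 2 than on day 1 in the controls and higher in the A20 cKO. Each genotype and day had 1 library, and the difference between genotypes was not tested. The 32 compared immediate-early genes had a median log2 ratio of -0.25 in the A20 cKO, with 2 at least 2-fold higher and 4 lower. Over all 9982 compared genes the A20 cKO median was -0.11, with 211 at least 2-fold higher and 237 lower. Dusp1 had 16.8 and 38.9 CPM on days 1 and 2 in the A20 cKO, a log2 ratio of 1.20 against -5.28 in the controls. Fosb had 1.65 and 5.93 CPM there, from 5 and 18 UMIs, a log2 ratio of 1.75 against -4.50. Fos had 13.2 and 21.1 CPM there, a log2 ratio of 0.67 against -4.46. In the A20 cKO all 3 genes were on both days below their level in the control day 2 library, 50.1, 24.4 and 186 CPM. In the other A20 cKO libraries they were above it, at 236, 110.2 and 508 CPM in naive mice and 204, 88.1 and 504 CPM on day 3, while the control day 1 library had 1948, 554 and 4105 CPM.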

How the results depend on the processing

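No paired analysis was possible because each day had 1 library, and for the same reason no library could be left out in turn. The counts of genes past 2-fold, 379 higher and 183 lower, depended on what was compared. They were 706 and 351 with a minimum of 20 UMIs in both libraries together, 2192 and 1488 with 1 UMI, 127 and 96 with 500, and 855 and 443 at 1.5-fold. After thinning every cell to 2000 UMIs, with fewer genes left to compare, 222 were higher. Distinct list members past 2-fold fell to 115 with 500 UMIs, when the spindle list had 18 higher members, the replication list 16 and the cyclin list 5, and numbered 287 at 1.5-fold. Clustered histone genes higher by 2-fold, 5 of 21, were 24 with 20 UMIs, 34 with 1 UMI, 2 with 500 UMIs, 2 after thinning, and 8 at 1.5-fold. The G2/M difference of 13.2 points was 29.7 without thinning, 6.30 in cells thinned to 1000 UMIs, and 26.9 with a threshold of 2 core genes. The S difference of 3.51 points, among cells with fewer than 3 core G2/M genes, was 0.0973 without thinning and 1.44 at 1000 UMIs. In cells without core UMIs, 24 genes were higher, against 65 where fewer than 2 core genes were allowed. With no UMI of the core, spindle and replication lists there were 7 higher and 23 lower, but then 62 and 2 cells remained. UMIs of the cyclin, histone, stathmin and tubulin lists were allowed in these cells. Scaling by TMM or by median ratios moved every log2 ratio by -0.04, and adding 5 UMIs, averaging cells, stricter or no cell filters, leaving out cells above 3 times the median UMIs, and leaving out shared barcodes kept both counts within 1.5 times. The 35 named genes kept their direction and stayed past 2-fold in all 420 alternative values, of which 401 lay inside the counting interval. Values under the minimums of 20, 1 and 500 UMIs equal the main value by construction. Most of these genes were chosen for their large ratios, so the agreement was partly fixed in advance. Depth limits the mitotic genes on day 1, where Nusap1 had 3 UMIs and Ube2c 7.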

Other observations

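Of the genes past 2-fold that no list held, 47 higher and 46 lower ones averaged at least 20 CPM over the 2 libraries, and those described here were chosen from them after their values were seen. Several of the higher ones are known to act in the cell cycle. Esco2, which acetylates cohesin in S phase, had 0.498 and 41.5 CPM on days 1 and 2, Pbk, a mitotic kinase, 1.07 and 53.7 CPM, and Cit, the citron kinase of cytokinesis, 2.49 and 46.0 CPM. Asf1b, a histone chaperone of replication, had 7.54 and 67.8 CPM, and Gmnn, geminin, which prevents a second round of replication, 15.6 and 59.8 CPM. Ezh2, the methyltransferase of Polycomb repressive complex 2, had 18.6 and 51.8 CPM, log2 1.48 (1.28 to 1.69). Others have no standard place in the cycle. Fxyd5, a regulator of the sodium pump, had 36.7 and 97.9 CPM, log2 1.41 (1.27 to 1.56), and the long noncoding RNA Snhg20 had 66.2 and 146 CPM, log2 1.14 (1.03 to 1.25), with 178 CPM in naive controls and 96.8 CPM on day 3.

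The lower ones had varied roles. Tmx4, a thioredoxin-related membrane protein, had 693 CPM on day 1 and 101 CPM on day 2, log2 -2.78 (-2.86 to -2.71). Rgs1, a brake on chemokine receptor signalling, had 425 and 66.3 CPM, and Neat1, the noncoding RNA of nuclear paraspeckles, 294 and 60.5 CPM. Mcl1, a short-lived survival protein of the BCL2 family, had 238 and 96.8 CPM, and Atf4, a factor of the integrated stress response, 227 and 109.6 CPM. Id2, an inhibitor of basic helix-loop-helix factors, had 182 and 63.7 CPM, log2 -1.52 (-1.62 to -1.41).

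Gzma had 0 UMIs on day 1 and 147 on day 2, with 76 in 1 barcode and no more than 2 in any other.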
